A study of Mus musculus with 57 samples.

Results

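Which combination of Hox genes each cell of the forming nephron transcribed was described in 57 single cells from the postnatal mouse kidney. The genes were 7 members of the family known from the metanephros, the embryonic form of the permanent kidney: Hoxa9, Hoxa10, Hoxa11, Hoxb7, Hoxc10, Hoxd10 and Hoxd11. They were taken by symbol from a table of 12087 genes, in which 28 Hox genes had a row, and all 7 were found. The cells came from Tg(Crym-EGFP)82Gsat mice of mixed strain background at postnatal day 4 (Theiler stage TS27). These mice carry a transgene in which Crym drives EGFP, a green fluorescent reporter. Renal vesicles were the sampled component, and cells were isolated by fluorescence-activated sorting and captured one by one on a Fluidigm C1 chip. All cells came from 1 pool of 2 kidneys, carried the same genotype and served as a single group with no other condition, so there is no replicate pool and no test. The label of sex reads unknown for all cells but 1.

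Hox genes encode homeodomain transcription factors that lie in clusters on separate chromosomes, and their order along a cluster follows the order of their domains along the body axis. Genes of the same number in different clusters, called paralogues, descend from a common gene and often act redundantly. In mouse kidney development the Hox11 paralogues act with Eya1 and Pax2 upstream of Six2 and Gdnf in the mesenchyme that makes nephrons, the Hox10 paralogues are needed in the renal stroma, and Hoxb7 is best known from the ureteric bud and collecting duct. The renal vesicle is the first epithelial stage of the nephron and already has a distal part, which joins the ureteric bud, and a proximal part, from which podocytes come.

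The members lie in all 4 mouse Hox clusters, at positions that are those of the deposited table on build mm9. In the HoxA cluster, Hoxa9 spans chr6:52174053-52177369, Hoxa10 spans chr6:52181196-52190853 and Hoxa11 spans chr6:52192105-52195766. Hoxb7 spans chr11:96147960-96151477 and Hoxc10 spans chr15:102797296-102802152. In the HoxD cluster, Hoxd11 spans chr2:74520450-74522195 and Hoxd10 spans chr2:74530005-74533159. The antisense gene Hoxa11as overlaps Hoxa11 by 686 bases at chr6:52195081-52199768. Because the library kit keeps no strand, reads of the overlap cannot be told apart.

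Of the 7 members, 5 had promoter sequences in RefSeq's table for build GRCm38.p6, and those of Hoxa10 and Hoxd10 are shown because these members were the ones at high level in the cells outside the nephron described later. Each run is the 250 bases before a transcription start, 5′ to 3′ on the gene's own strand, and capitals mark TTTAT or its reverse complement ATAAA, the core letters read by homeodomains of the Abdominal-B type. Hoxa10 has an upstream start, whose window is chr6:52240855-52241104 on the minus strand, and a downstream one, whose window is chr6:52234940-52235189 on the minus strand. The Hoxd10 window is chr2:74691641-74691890 on the plus strand. The bases just after the Hoxd10 window were not found in a transcript of this gene in the GENCODE annotation. For every other window of the members they were found.
Hoxa10 upstream start: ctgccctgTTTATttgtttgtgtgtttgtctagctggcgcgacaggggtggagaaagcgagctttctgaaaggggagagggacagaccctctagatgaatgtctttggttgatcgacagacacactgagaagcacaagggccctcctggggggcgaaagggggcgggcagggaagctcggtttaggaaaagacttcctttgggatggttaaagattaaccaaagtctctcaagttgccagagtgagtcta
Hoxa10 downstream start: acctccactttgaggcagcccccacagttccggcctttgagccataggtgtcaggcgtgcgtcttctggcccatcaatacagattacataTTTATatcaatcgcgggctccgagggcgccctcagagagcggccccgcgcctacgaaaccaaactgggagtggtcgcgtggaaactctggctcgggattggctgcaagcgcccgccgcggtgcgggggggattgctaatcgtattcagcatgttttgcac
Hoxd10: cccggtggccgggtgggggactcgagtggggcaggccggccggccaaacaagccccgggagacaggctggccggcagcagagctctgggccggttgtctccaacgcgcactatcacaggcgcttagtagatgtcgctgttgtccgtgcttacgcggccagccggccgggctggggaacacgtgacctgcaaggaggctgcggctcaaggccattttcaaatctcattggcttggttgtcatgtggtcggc
Each Hoxa10 window held 1 match and the Hoxd10 window held 0, while 37.3% of the 32851 promoters in the table held at least 1 on either strand in the same 250 bases. The longer form TTTATGG was in 2.43% of these promoters and in none of the windows of the 5 members. The windows differed more in CG dinucleotides, the sites of DNA methylation, with 7 at the upstream start of Hoxa10, 20 at its downstream start and 20 at Hoxd10, against a median of 6 over the table. Counts this high were common, since 27.3% of the promoters held at least 15. The windows not shown held 3 at Hoxa9, 13 at Hoxa11 and 2 and 20 at the starts of Hoxd11. A match of letters is a description and shows no binding.

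Levels are given in RPKM, which divides reads by gene length and by mapped reads and so lets genes be set side by side. Detection of a gene meant an RPKM of at least 1. Depth, estimated from the low values, ran from 0.462 to 2.16 M reads with 1.43 M as the median, and 1 read in a gene of 1 kb was worth an RPKM of 0.462 to 2.16. In the median cell 4307 genes were detected. Cells 30 and 52 stood apart with the lowest estimated depth, 0.462 and 0.495 M reads, and cell 52 had the fewest detected genes of all, 2809. Several of the highest values below come from cell 52. A value of 0 may be a missed transcript, since the housekeeping genes Hprt and Tbp were listed at 0 in 9 and 22 of the 57 cells. Cells with more detected genes also had more of the 7 members (Spearman rho 0.449 over 57 cells), and the part of depth in the results was not tested.

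Cells were called nephron cells where Pax8, a transcription factor of the nephron lineage, had an RPKM of 5 or more. This gave 50 nephron cells and 7 other cells. The threshold fell in a wide gap, with Pax8 at 10.7 in cell 50 and 15.8 in cell 54, the lowest of the nephron cells, and at 1.99 in cell 58, the highest of the other cells. The 11 nephron epithelium markers other than Pax8 summed to a median RPKM of 1043 in nephron cells (12.3 to 2485) and 48.9 in the other cells (6.87 to 140.3), with ranges that overlap. The other cells were of 2 kinds by marker genes, a split made after their values were seen but without the Hox genes. In 5 cells (1, 25, 35, 46 and 58), here macrophage-like, all 11 macrophage markers with a row were detected, among them C1qa, C1qb, Csf1r and Cd68, and they summed to an RPKM of 9531 to 19623. In cells 13 and 53, here stromal-like, 6 and 7 of 8 stromal markers were detected, with Pdgfra at 237 and 365, Dcn at 349 and 126 and Meis1 at 131 and 369. The stromal marker Aldh1a2 was undetected in them, at 0.277 and 0, and Pdgfrb was at 0.115 in cell 13. Aldh1a2 went the other way, being detected in 33 of 50 nephron cells with a median of 67.8. Lyz2 was the only macrophage marker detected in the stromal-like cells, at 219 and 304. Nephron cells held a median of 1 stromal marker (0 to 7) and 1 macrophage marker (0 to 8). Their stromal markers summed to a median of 113, beside 1066 in cell 13 and 1605 in cell 53. The highest nephron sum was 1782 in cell 30, where Aldh1a2 was at 1780.

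Hoxa10 was the member found in most cells, and Hoxa11 in fewest. Hoxa10 was detected in 40 of 57 cells (70.2%, exact Clopper-Pearson 95% interval 56.6 to 81.6%) and Hoxc10 in 35 (61.4%, 47.6 to 74.0%). Hoxa9 and Hoxb7 were each detected in 24 cells (42.1%, 29.1 to 55.9%). Hoxd10 was detected in 20 cells (35.1%, 22.9 to 48.9%), Hoxd11 in 13 (22.8%, 12.7 to 35.8%) and Hoxa11 in 6 (10.5%, 3.96 to 21.5%). The intervals of neighbours in this order overlap, and each interval covers the sampling of cells from this pool only. Among all 12087 genes, 15.2% were detected in as many cells as Hoxa10 or more, and 81.4% in as many as Hoxa11 or more.

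**Figure D1:**
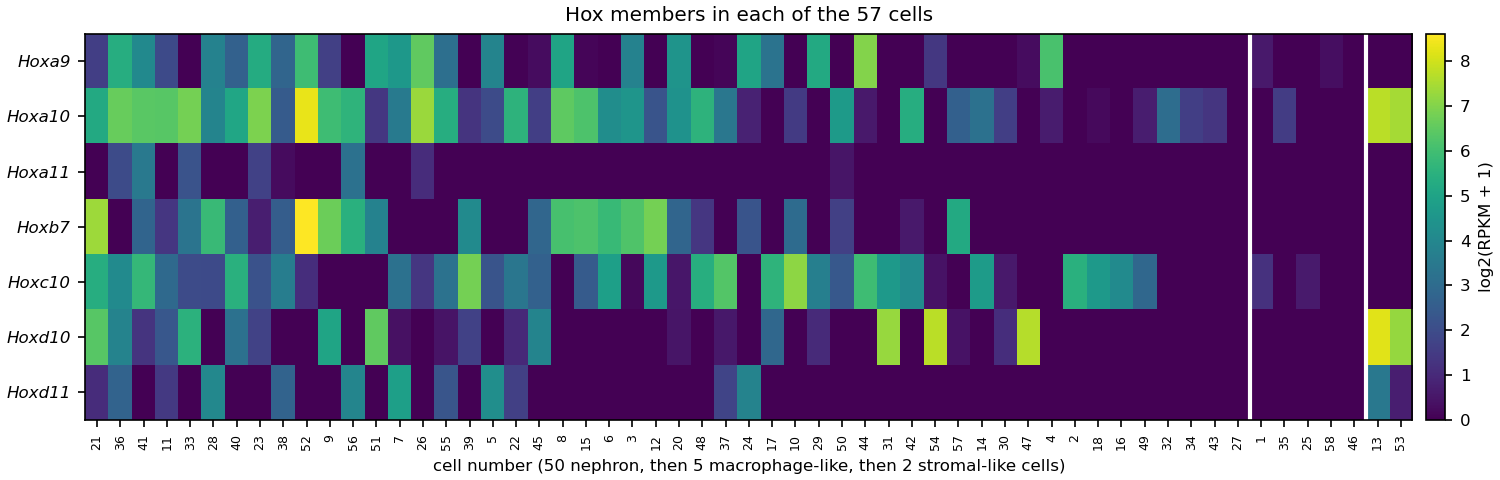
Level of the 7 Hox members in each of the 57 cells, as log2(RPKM + 1) by colour. Columns are cells, with the 50 nephron cells on the left ordered by the number of members detected, then the 5 macrophage-like and the 2 stromal-like cells, set off by white lines. The macrophage-like columns are nearly empty, and the stromal-like columns are filled for Hoxa10 and Hoxd10.

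In nephron cells each member ranged from 0 to levels far above its median, and a few cells set each mean. Among the Hox10 paralogues, Hoxa10 had a median RPKM of 7.83 and reached 322 in cell 52, with 160 in cell 26 and 119 in cell 23 next. Hoxc10 had a median of 5.83 and was highest in cell 10 at 143 and in cell 39 at 113. Hoxd10 was undetected in most nephron cells, with a median of 0, but had 208 in cell 54, 202 in cell 47 and 154 in cell 31. The 3 paralogues thus had their highest levels in different cells.

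The Hox11 paralogues, which with Hoxc11 are needed together for the metanephric kidney of the mouse, were detected at low levels. Hoxd11 was detected in 12 of 50 nephron cells, with 28.1 in cell 7, 18.3 in cell 5 and 15.3 in cell 28 as its highest values. Hoxa11 was detected in 6 of 50 nephron cells, at 10.2 in cell 41, 8.31 in cell 56, 3.599 in cell 33, 2.89 in cell 36, 2.18 in cell 23 and 1.12 in cell 26. The antisense gene Hoxa11as was detected more often than Hoxa11, in 22 nephron cells and at up to 103 in cell 45, and both were detected in 3 nephron cells.

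Hoxa9, which lies next to Hoxa10 in the cluster, had a nephron median of 0.221 and reached 130 in cell 44 and 89.6 in cell 26. Hoxb7 had a nephron median of 0.573 and reached 391 in cell 52, the same cell that was highest for Hoxa10, and 164 in cell 21. Where it was detected in nephron cells, Hoxb7 had a median of 14.7 and Hoxa9 a median of 18.5, beside 21.4 for Hoxa10, 16.4 for Hoxc10 and 10.9 for Hoxd10. These 5 medians lay close together beside the range of each gene over cells. Among detecting cells the Hox11 paralogues were lower, with medians of 5.72 for Hoxd11 and 3.25 for Hoxa11.

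**Figure D2:**
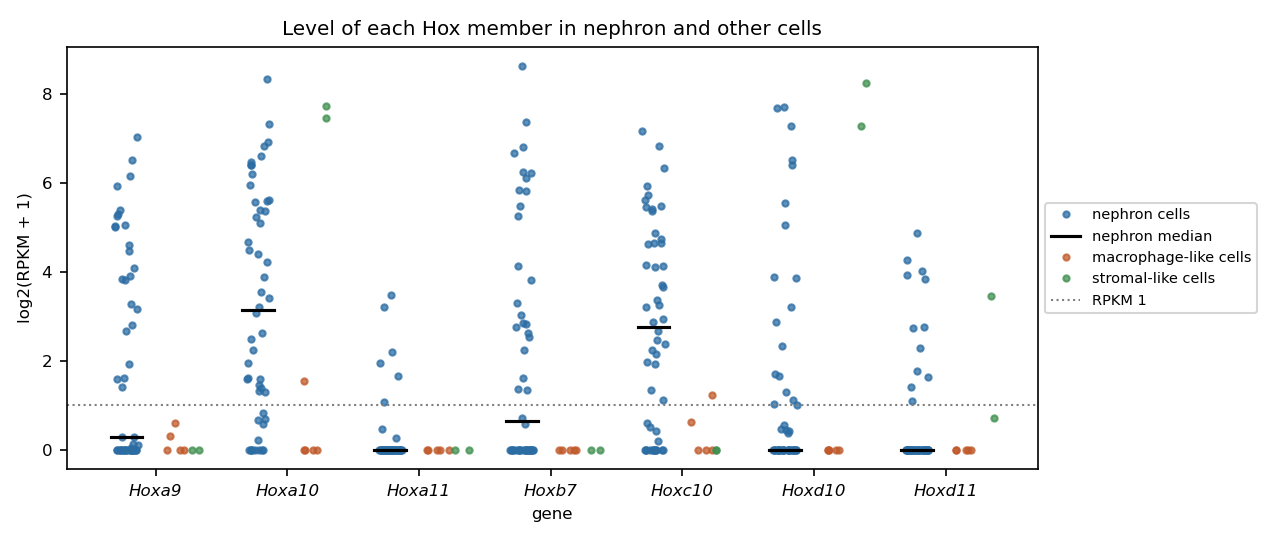
Level of each member on a log2(RPKM + 1) scale, with 1 point per cell, nephron cells on the left of each gene and macrophage-like and stromal-like cells on the right. Black bars are nephron medians and the dotted line is RPKM 1. Hoxb7 and Hoxa11 have points above 0 in nephron cells only, and the 2 stromal-like cells lie near the top of the range of Hoxa10 and Hoxd10.

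Most nephron cells transcribed several members at once. Nephron cells had a median of 3 members (range 0 to 6) and other cells a median of 1 (range 0 to 3). At least 2 members were detected in 40 of 50 nephron cells (80.0%, 66.3 to 89.97%) and in 2 of 7 other cells (28.6%, 3.67 to 71.0%). Both of those other cells were the stromal-like ones, so the share was 0% without them and 100% without the macrophage-like cells. Nephron cells also had more genes detected, with a median of 4365.5 of the 12087 genes against 3489 in other cells. The mean number of members in nephron cells was 3.1 of 7. The number that the share over all genes would give was not computed. Counting all 28 Hox genes, nephron cells held a median of 8 (2 to 18) and other cells a median of 1 (0 to 4).

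**Figure D3:**
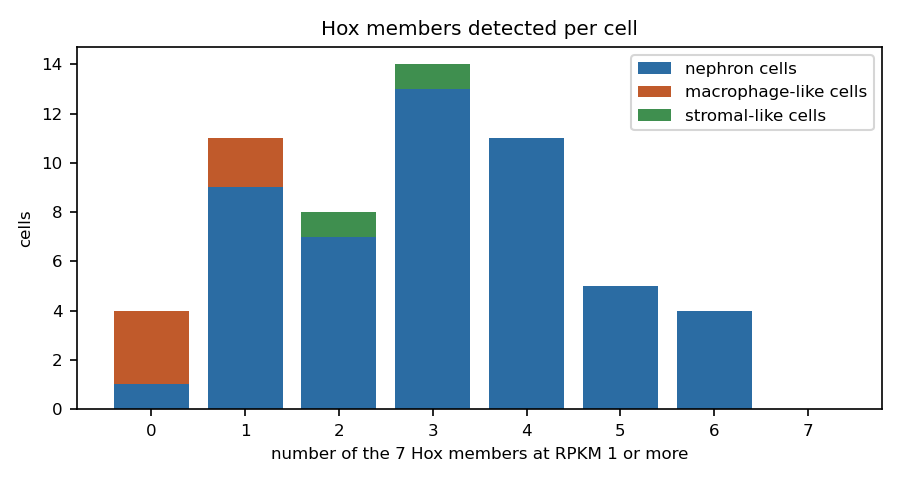
Number of cells by how many of the 7 members were detected at RPKM 1 or more, with nephron, macrophage-like and stromal-like cells stacked. Nephron cells peak at 3 members with 13 cells, and no cell held all 7.

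Cells held many different combinations. There were 30 distinct combinations with at least 1 member, out of 127 possible, and 18 of them were seen in a single cell. The most common was Hoxa10 with Hoxb7 and Hoxc10, in 6 nephron cells (6, 10, 12, 15, 48 and 50). Hoxc10 alone came next with 4 nephron cells and 1 macrophage-like cell. Hoxa9 with Hoxa10 and Hoxb7 occurred in 3 nephron cells (3, 8 and 20), as did Hoxa9 with Hoxa10, Hoxc10 and Hoxd11 (5, 7 and 55). Cell 27 was the nephron cell with no member detected. At the other end, cells 11, 21, 36 and 41 held 6 members each, cells 11 and 21 lacking Hoxa11, cell 36 lacking Hoxb7 and cell 41 lacking Hoxd11. Values near RPKM 1 entered the combinations, as with Hoxd11 at 1.13 in cell 21, where 1 read in 1 kb was worth 0.944. The number of combinations was not recomputed at another threshold. The number that independent detection of the members would give was not computed.

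Within a cell the members differed in level. In the 40 nephron cells with at least 2 members, the highest member held a median of 64.4% of the summed RPKM of all 7 (35.2 to 99.1%). It was a median of 2.38 times the next member, and 10 times the next or more in 3 of these cells. Hoxa10 was the highest member in 17 of the 49 nephron cells with any, Hoxc10 in 11, Hoxb7 in 9, Hoxa9 in 5, Hoxd10 in 5, Hoxd11 in 2 and Hoxa11 in 0. The summed RPKM of the 7 had a median of 90.7 in nephron cells and 1.88 in other cells, with the highest sums at 774 in cell 52 and 521 in the stromal-like cell 13.

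By paralogue group, nearly every nephron cell held a Hox10 gene. At least 1 of Hoxa10, Hoxc10 and Hoxd10 was detected in 47 of 50 nephron cells and in 4 of 7 other cells, and all 3 in 10 nephron cells. Singly, Hoxa10 was detected in 37 of these 50 cells, Hoxc10 in 34 and Hoxd10 in 18. Single shares this high alone bring a high joint share, and the count they would give for the 3 genes was not computed. Hoxa10 with Hoxc10 but no Hoxd10 was the most frequent of the Hox10 combinations, in 16 nephron cells. Hoxa10 was the only Hox10 gene in 8 nephron cells, Hoxc10 in 5 and Hoxd10 in 2. At least 1 of Hoxa11 and Hoxd11 was detected in 16 of 50 nephron cells and in 1 of 7 other cells, and both in 2 nephron cells. A Hox9 gene (Hoxa9, Hoxb9, Hoxc9 or Hoxd9) was detected in 41 nephron cells and in 0 other cells, and a Hox7 gene (Hoxa7 or Hoxb7) in 29 and 0.

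Rank correlations between paralogues were low across nephron cells. Spearman rho over the 50 cells was -0.06 for Hoxa10 with Hoxc10, 0.01 for Hoxa10 with Hoxd10, 0.06 for Hoxc10 with Hoxd10 and 0.15 for Hoxa11 with Hoxd11. Both Hoxa10 and Hoxc10 were detected in 26 nephron cells, where the product of their shares gives 25.2, and both Hoxa10 and Hoxd10 in 13, where it gives 13.3. The mean rho was 0.04 over the 4 pairs of paralogues, 0.22 over the 4 pairs from the same cluster and 0.08 over the other 13 pairs. All cells share 1 pool, 1 assay and varying depth, and these values are descriptions.

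The 2 pairs with the highest rho both included Hoxa10. Hoxa10 was detected in 23 of the 24 nephron cells with Hoxb7, where the product of shares gives 17.8 cells, and rho between their levels was 0.48 (0.44 with the number of detected genes regressed out, and 0.44 without cells 30 and 52). Hoxa10 was also detected in all 6 cells with Hoxa11, its neighbour in the cluster (product of shares 4.44, rho 0.49). The third pair was Hoxa9 with Hoxd11, detected together in 9 of the 12 cells with Hoxd11 (product of shares 5.76, rho 0.26). Hoxd10 and Hoxd11, neighbours in the HoxD cluster, were detected together in 4 cells (product of shares 4.32, rho -0.0015).

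Set against the other cells, the members differed in direction. A difference was called where log2(mean RPKM + 1) differed by at least 1 between groups, a scale that understates the change of low genes. By this rule 44.7% of the 12087 genes were higher in nephron cells and 18.4% lower, with a median difference of 0.76. Of the members, 3 were higher, 1 was lower and 3 were neither, and of the 22 other Hox rows, Hoxa11as among them, 16 were higher, 0 lower and 6 neither. There is no replicate check of these differences.

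Hoxb7, Hoxa9 and Hoxc10 were the members higher in nephron cells. Hoxb7 averaged 25.1 in nephron cells and was listed at 0 in all 7 other cells. Hoxa9 averaged 13.95 in nephron cells and 0.110 in other cells, a log2 difference of 3.75. Hoxc10 averaged 18.6 in nephron cells and 0.271 in other cells, a log2 difference of 3.95. For Hoxa9 no other cell reached RPKM 1, and for Hoxc10 only the macrophage-like cell 1 did, at 1.36. Nephron cells overlapped the other cells for every member, since some nephron cells were at 0.

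Hoxd10 and Hoxa10 had lower means in nephron cells, and both of these differences rested on cells 13 and 53. Hoxd10 averaged 17.4 in nephron cells and 64.9 in other cells, a log2 difference of -1.84. Without the stromal-like cells the difference for Hoxd10 was 4.20, and as a difference of mean log2(RPKM + 1) over all cells it was -0.77. Hoxa10 averaged 33.0 in nephron cells and 55.2 in other cells, a log2 difference of -0.72 that did not reach the call. Its direction was not stable, since as a difference of mean log2(RPKM + 1) over all cells it was 0.87, and without the stromal-like cells the difference was 4.62. Hoxd11 averaged 2.24 in nephron cells and 1.51 in other cells, a log2 difference of 0.37. That difference was 1.69 without the stromal-like cells and -0.96 without the macrophage-like cells. Hoxa11 averaged 0.577 in nephron cells and was listed at 0 in all other cells.

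The stromal-like cells carried a short set of Hox genes at high level. Hoxa10 had an RPKM of 209.7 in cell 13 and 174.5 in cell 53, levels exceeded among nephron cells by cell 52 alone. Hoxd10 had 301 in cell 13 and 153 in cell 53, against a nephron median of 0 and a highest nephron value of 208. Hoxd11 had 9.94 in cell 13 and 0.644 in cell 53. Hoxa9, Hoxa11, Hoxb7 and Hoxc10 were listed at 0 in both. Hoxa11as was at 109 in cell 13 and at 0 in cell 53. Against these cells, 60.8% of all genes were higher and 13.8% lower in nephron cells, and of the members 3 were higher (Hoxa9, Hoxb7 and Hoxc10) and 2 lower (Hoxd10 with a log2 difference of -3.63 and Hoxa10 with -2.50). The TALE homeodomain proteins, cofactors of Hox proteins, were represented by 7 genes, Meis1 and Meis2 among them. These summed to 0 to 241 in nephron cells, with a median of 11.0, and to 154 in cell 13 and 437 in cell 53. Meis1, itself a stromal marker of the split, made up 131 and 369 of these sums.

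The macrophage-like cells were nearly without Hox transcripts. Cell 35 had Hoxa10 at 1.90, cell 1 had Hoxc10 at 1.36 and Hoxa9 at 0.520, cell 25 had Hoxc10 at 0.543 and cell 58 had Hoxa9 at 0.248. Every other value of the 7 members in these 5 cells was 0. Against these cells, 52.0% of all genes were higher and 16.9% lower in nephron cells, and 6 of the 7 members were higher, all but Hoxa11.

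Among nephron cells, Hoxa10 and Hoxb7 followed genes of the distal vesicle. For each cell the mean log2 level was taken over 6 distal genes with a row (Sox9, Pou3f3, Dkk1, Greb1, Irx3 and Wfdc2) and over 7 proximal and podocyte genes (Wt1, Tcf21, Tmem100, Cdkn1c, Podxl, Nphs1 and Synpo). Both lists were chosen with earlier results of these data known, so they are not an independent axis. Of 7713 genes, 5.35% had a rho of 0.3 or more with the distal mean over the 50 cells and 2.90% a rho of -0.3 or less. Hoxa10 had a rho of 0.58 with the distal mean (0.56 with detected genes regressed out), and Hoxb7 had 0.43 (0.39). Without cells 30 and 52 these were 0.55 for Hoxa10 and 0.40 for Hoxb7. The other 5 members ranged from -0.20 for Hoxc10 to 0.25 for Hoxa11. With the proximal mean, Hoxa10 had a rho of -0.37 and Hoxb7 had -0.22, and the other members lay between -0.24 for Hoxa11 and 0.19 for Hoxd11. By the same measure 4.77% of genes had a rho of 0.3 or more with the proximal mean and 2.05% a rho of -0.3 or less. In all 57 cells the value for Hoxa10 with the proximal mean was -0.067. The stromal-like cells held the proximal gene Tcf21 at 548 and 1194 beside their high Hoxa10.

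**Figure D4:**
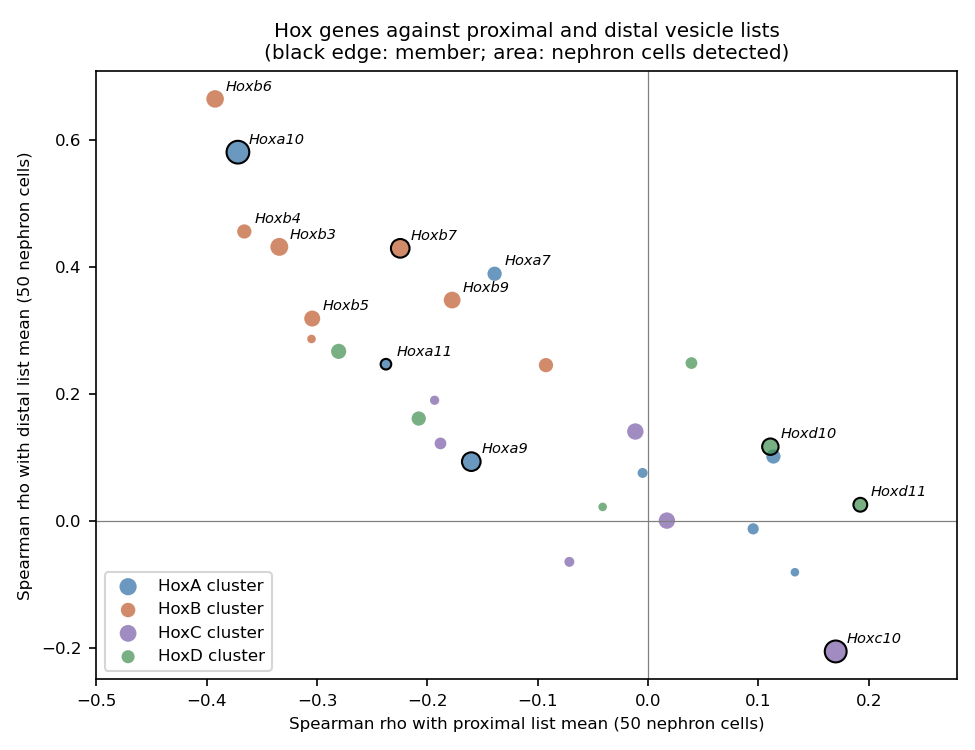
Spearman rho over 50 nephron cells of each of the 28 Hox genes with the mean of the proximal list (horizontal) and of the distal list (vertical). Colour gives the cluster, the area of a point grows with the number of nephron cells in which the gene was detected, and black edges mark the 7 members. Hoxa10 and most HoxB genes lie at the upper left, and Hoxc10 lies at the lower right.

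The single genes of each list varied in this relation. Over the 6 distal genes, Hoxa10 had a rho of 0.30 with Wfdc2 to 0.54 with Sox9, and Hoxb7 had 0.15 with Wfdc2 to 0.58 with Greb1. On the proximal side the relation was strongest for Wt1, a podocyte regulator, at -0.42 with Hoxa10 and -0.49 with Hoxb7, while Tcf21 was at -0.09 with Hoxa10 and 0.08 with Hoxb7. By detection, Hoxa10 was found in 17 of 17 nephron cells with Sox9 (product of shares 12.6), in 23 of 24 with the oestrogen-regulated gene Greb1 (17.8) and in 13 of 14 with Pou3f3, a transcription factor of the distal nephron (10.4). It was found in 26 of 34 with Wfdc2 (25.2). Hoxb7 was detected with Greb1 in 19 cells (11.5), with Pou3f3 in 12 cells (6.72), with Wfdc2 in 17 cells (16.3) and with Wt1 in 18 cells (20.2). Split by both genes, 23 nephron cells held Hoxa10 and Hoxb7, 14 held Hoxa10 without Hoxb7, 1 held Hoxb7 without Hoxa10 and 12 held neither. The distal list summed to a median of 129 in cells with both genes, 107 in cells with Hoxa10 without Hoxb7 and 14.2 in cells with neither. Its ranges overlapped, at 0 to 1456, 0.242 to 545 and 0.075 to 237. By number of genes, a median of 3 of the 6 distal genes was detected in cells with both. That median was 1 in cells with Hoxa10 without Hoxb7 and also 1 in cells with neither. The proximal list summed to a median of 211 in cells with both, 550.1 in cells with Hoxa10 without Hoxb7 and 541 in cells with neither. These ranges overlapped too, at 1.13 to 2397, 29.8 to 2711 and 117 to 1794. A median of 4600 genes was found in cells with both, 4150 in cells with Hoxa10 without Hoxb7 and 4091 in cells with neither, and the part of depth was not tested.

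Most HoxB genes lay on the distal side as well. Among Hox genes detected in at least 10 nephron cells, the filter behind the 5.35% of all genes given above, 8 of 18 had a rho of 0.3 or more with the distal mean. These were 6 of 7 HoxB genes, led by Hoxb6 at 0.67, Hoxb4 at 0.46 and Hoxb3 at 0.43, and 2 of 4 HoxA genes, Hoxa10 and Hoxa7, with 0 of 3 HoxC and 0 of 4 HoxD genes. With the proximal mean, 4 of 7 HoxB genes and 1 of 4 HoxA genes had a rho of -0.3 or less, against 2.05% of all genes. Hoxb7 itself had a rho of 0.13 to 0.23 with each of the other 7 HoxB genes. Hoxb7 and Hoxb6, neighbours in the cluster, were detected together in 12 nephron cells, where the product of shares gives 10.1.

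The authors' class table held the same contrast for 787 genes in 28 cells, all of them nephron cells. It lists a signed fold, proximal class over distal class, and its negative values mark genes higher in the distal class. The distal class had the higher level for 44.6% of the genes in the authors' deposited table, and of 7 Hox genes listed there for all 7. Its fold for Hoxa10 was -11.9, and for Hoxb7 it was -6.57. The other Hox genes of the authors' deposited table were Hoxb6 at -8.61, Hoxd8 at -7.36, Hoxb9 at -5.35, Hoxb3 at -4.70 and Hoxb4 at -4.27, beside a median size of 5.34 over the genes higher in the distal class. In that table's own RPKM values, Hoxa10 was detected in 23 of 28 cells with a median of 31.8, and Hoxb7 in 15 with a median of 2.28. The 5 other members are not listed there. Which class a cell was put in is not stated in the labels or tables, and because the cells are the same, the table does not add to the values above as separate evidence.

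**Figure D5:**
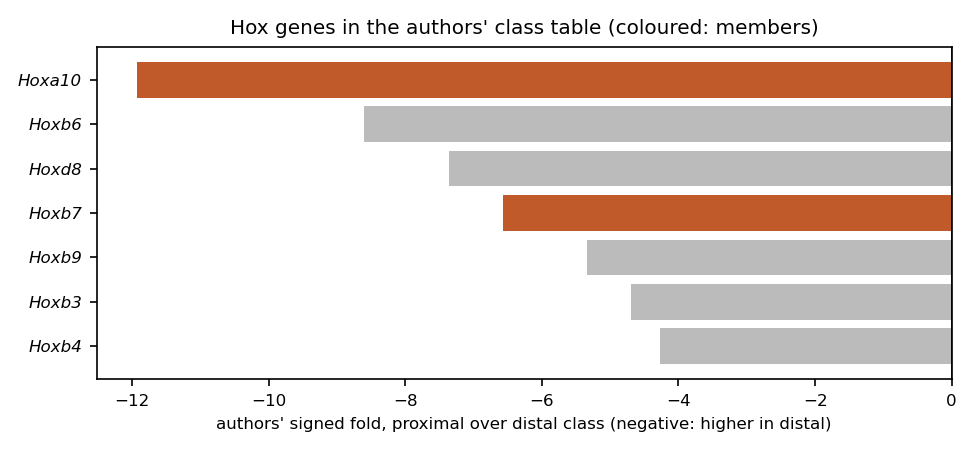
Signed fold in the authors' deposited class table for the 7 Hox genes it lists, proximal class over distal class, with the members Hoxa10 and Hoxb7 coloured and the other Hox genes in grey. All bars point to the distal side, from -11.9 for Hoxa10 to -4.27 for Hoxb4.

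The few ureteric bud markers with a row were at low median levels with and without Hoxb7. Of 12 listed genes only Wnt11, Krt18 and Cdh16 had a row. They summed to 0 to 173 (median 0.327) in the 24 nephron cells with Hoxb7 and to 0 to 421 (median 0.301) in the 26 without it. At least 2 of these markers were detected in 0 of the 24 cells and in 2 of the 26. Krt18, a keratin of simple epithelia, was detected with Hoxb7 in 2 cells, where the product of shares gives 4.32. Cdh16, a cadherin also found in nephron tubules, was detected with Hoxb7 in 9 cells (6.24).

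Hoxd11 was detected with Eya1 and with Six2, genes of the progenitor mesenchyme, in more cells than the product of shares gives, though in few cells. It was detected in 8 of 18 nephron cells with Eya1 (product of shares 4.32) and in 3 of 5 with Six2 (1.20), but in 4 of 19 with Pax2 (4.56). The Spearman rho of Hoxd11 over nephron cells was 0.31 with Eya1, 0.21 with Six2, -0.04 with Pax2 and 0.34 with Meis2. With the proximal gene Tmem100 it was 0.32, as high as with Eya1. The share of all genes with a rho of this size with Hoxd11 was not computed. The 8 partners and targets of Hox11 with a row (Pax2, Eya1, Six2, Six4, Osr1, Sall1, Itga8 and Wt1) summed to a median of 285 in the 12 nephron cells with Hoxd11 and 232 in the 38 without it, with ranges of 81.0 to 711 and 19.3 to 1785 that overlap. For Hoxa11 these sums had medians of 105 in 6 cells with it and 268 in 44 without it. Hoxa11 had a rho of 0.35 with Itga8, an integrin of the nephron progenitors, but Itga8 was detected in only 7 nephron cells and Hoxa11 in 6. Hoxa11 had values of like size with the distal gene Greb1 (0.32) and the proximal gene Cdkn1c (-0.34). Hoxc10 and Hoxa9 had few such relations, the largest in size being -0.34 for Hoxc10 with the Notch ligand Jag1 and -0.31 for Hoxa9 with the cell cycle inhibitor Cdkn1c. Hoxd10, like Hoxd11, had a rho of 0.32 with Tmem100.

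For the 6 members detected in at least 10 nephron cells, so not for Hoxa11, genes were ranked for likeness by Spearman rho among 7707 genes detected in at least 10 nephron cells, and the top 3 are given. Hoxa10 was followed by Emx2, a homeobox gene of the nephron epithelium (0.63), Pcdh7 (0.59) and Socs2 (0.59), and Hoxb7 by Tomm34 (0.63), BC056474 (0.60) and Greb1 (0.58). Hoxd10 was followed by Cenpe (0.61), Rai1 (0.56) and Kif20a (0.54), of which Cenpe and Kif20a encode kinesins of mitosis. For Hoxd11 they were Commd1, Mtx3 and Pikfyve (0.52 to 0.55), for Hoxc10 Cog5, Dtna and Tbpl1 (0.50 to 0.51) and for Hoxa9 Hint2, Ppp2r3a and Mut (0.47 to 0.48). These are the tops of long rankings over 50 cells and carry no test.

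The remaining Hox genes showed that the members were part of a broader set. Besides the members, 17 Hox genes were detected in at least 5 of the 57 cells, led by Hoxb3 in 23, Hoxb6 in 22, Hoxc8 in 20, Hoxb9 in 19 and Hoxc9 in 18. Hoxb5 followed in 17 and Hoxd8 in 15, and Hoxd9, Hoxa5, Hoxa7, Hoxb4 and Hoxb2 were each detected in 13. Hoxd4 and Hoxc4 were detected in 8 cells each, Hoxa3 in 7, and Hoxa2 and Hoxc6 in 5 each. Hoxd8 reached 545 in cell 52, the cell that was also highest for Hoxa10 and Hoxb7, and Hoxb9 reached 353 in cell 30. Both come from the shallow libraries described above. The remaining 4 Hox genes with a row were detected in 3 or 4 cells. A gene above RPKM 3 in fewer than 2 cells had no row, and such Hox genes are not analysed here. By cluster, at least 1 gene was detected in 48 of 50 nephron cells for HoxA, 44 for HoxB, 41 for HoxC and 38 for HoxD, and in 3, 2, 2 and 2 of the 7 other cells. The clusters had 8, 8, 6 and 6 genes with a row, and more genes alone bring more such cells, so these counts do not rank the clusters. With 50 nephron cells and 7 other cells, a row could be gained through nephron cells alone.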

How the data were processed

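The authors deposited a table of RPKM values for 12087 genes in 57 cells, not logged, per the file headers, with a count of cells above RPKM 3 for each gene. That deposited count equalled the values in all 12087 genes. A second deposited table holds RPKM of 787 genes in 28 cells and the authors' signed fold between classes, treated as a score. Build mm9, DESeq and TopHat 1.4.1 are named, without their roles, in the submitters' processing notes. The library kits keep no strand and add no molecular identifiers, per the labels' protocols. The headers place all cells in 1 sequencing lane.

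Depth is not given with RPKM, so reads per cell were estimated from the lowest values of 1015 single-transcript genes. This is approximate, as 25.2 to 54.5% of low values lay within 0.1 of whole reads. In list and gene rankings, 23 symbols on more than 1 row were left out. Shares carry exact 95% intervals, which cover counting error only. Cells are not replicates, so no p-value was computed. The 7 members are all named. Other Hox genes are named if detected in at least 5 cells, and the 3 most alike genes by rank correlation. Members and lists were chosen with earlier results of these data known, and some marker genes were picked for values after they were seen. A few listed marker genes were left out of the lists and are not reported here. The correlation and difference steps were tested on simulated data. Python 3.11.15, numpy 2.4.6, pandas 2.3.3, scipy 1.17.1 and matplotlib 3.10.9 were used.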

Additional observations from a re-analysis of the deposited data

How the results depend on the processing

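Of 228 recomputed values, 205 were counted as unchanged. For shares of cells this meant lying within the exact interval of the main value, which could be wide. The share of other cells with at least 2 members counted as unchanged at 44.4%, with nephron cells at Pax8 RPKM 20 or more. Its main value was 28.6%, with an interval of 3.67 to 71.0%. The median number of members and the shares of all genes had a limit on the size of change. Log2 differences and correlations counted as unchanged if they stayed on their side of the threshold, 5 of them with a change of sign below it. These 5 were Hoxa10 between nephron and other cells at 0.87 as a difference of mean log2(RPKM + 1), Hoxd11 at -0.96 without the macrophage-like cells, and correlations with the distal list of -0.014 and -0.055 for Hoxd11 (detected genes regressed out, and Pearson r) and -0.0010 for Hoxd10 (Pearson r). Leaving out cells 30 and 52, added after seeing the data, changed no value by these rules. Detection at RPKM 5 or more gave shares of 50.9% for Hoxa10 (54.4% above RPKM 3), 3.51% for Hoxa11, 45.6% for Hoxc10, 22.8% for Hoxd10 and 28.0% of nephron cells for Hoxa10 with Hoxb7. Without the 14 cells with the fewest genes, both stromal-like cells among them, 0% of other cells held at least 2 members, and differences between nephron and other cells were 5.04 for Hoxa10 and 4.47 for Hoxd10, both reversed, and 1.58 for Hoxd11. Without the stromal-like cells, chosen after seeing the data, they were 4.62, 4.20 and 1.69, and 0% of other cells held at least 2 members. Without the macrophage-like cells the share was 100% and Hoxa10 was -2.50. Hoxa10 was -1.25 with nephron cells at Pax8 RPKM 1 or more, and Hoxa11 was 2.76 at a pseudocount of 0.1. Differences of mean log2(RPKM + 1) gave 22.3% of genes higher, 11.8% lower and -0.77 for Hoxd10. The Spearman rho of Hoxa10 with the proximal list was -0.067 over all 57 cells, and Pearson r of Hoxa11 with the distal list was 0.36. Except where shown by construction, the cause was not tested.

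No paired analysis was possible because the cells form 1 group with a number each. A level near RPKM 1 rests on few reads, so non-detection of Hoxa11 and Hoxd11 shows no absence. The single pool leaves variation between animals unmeasured.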
